A study of Mus musculus with 6 samples.

Results

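The PAR bZIP transcription factors and the clock output genes considered here are 10 genes, Dbp, Tef, Hlf, Nfil3, Bhlhe40, Bhlhe41, Wee1, Usp2, Cdkn1a and Por. They were taken by gene name from a table of read counts for 25904 genes, and all 10 were found there once and passed the filter on low counts that left 14606 tested genes. The counts come from polyadenylated liver RNA of C57BL/6J mice, 3 libraries from Ptprd+/+ mice (wild type, WT 1 to WT 3) and 3 from Ptprd+/- mice (heterozygous, Het 1 to Het 3), with no treatment named for either genotype. Ptprd encodes a receptor-type protein tyrosine phosphatase. The labels do not say how the Ptprd allele was altered, nor the sex, the diet or the age of the animals. The hour of tissue collection, which bears on genes that cycle over the day, is likewise not given in the labels. Nothing in the labels says which libraries came from separate mice beyond the count of 3 per genotype in the series design, so p-values measure the spread between these samples.

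The circadian clock of mouse liver is a feedback loop in which the activators CLOCK and BMAL1 (encoded by Arntl) bind E-box elements and drive their own repressors, the PER and CRY proteins, and the nuclear receptors REV-ERB. The same activators drive output genes, among them Dbp, whose product belongs with TEF and HLF to the PAR bZIP family and activates genes through D-box elements. NFIL3 is a repressor that binds the same D-box, and its gene is held down by REV-ERB, so that Nfil3 and Dbp transcripts are known to peak at opposite times of day. Dbp and Arntl transcripts likewise alternate over the day in liver, and PAR bZIP proteins are known to drive detoxification genes in this organ, Por among them.

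Promoter windows from RefSeq (GRCm38.p6, the mm10 build, 250 bases before to 50 after each gene's start) were matched by symbol for 8 of the 10 genes, in 10 windows. They were searched on both strands for the E-box CACGTG, its variant CACGTT, the D-boxes TTACGTAA and TTATGTAA, and TAGGTCA, the core of the element that ROR and REV-ERB receptors bind. The E-box was found in 3 windows, of Tef (both of its starts) and Bhlhe41, and in 7.15% of all 32851 promoter windows. TAGGTCA was found once, in Nfil3, and in 2.61% of all windows. The windows of Dbp, Hlf, Usp2, Cdkn1a and Por held no match to any of the letters searched, and no window of the 10 genes held CACGTT or a D-box, which occur in 4.68%, 0.119% and 0.938% of all windows in the order given above. All 4 matched sites are shown with their surroundings. Each is 30 bases in the gene's sense direction, 5′ to 3′, with the matched letters in capitals, and in Nfil3 the match is on the opposite strand.
Tef, first start: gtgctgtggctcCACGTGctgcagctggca
Tef, second start: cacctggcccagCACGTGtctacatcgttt
Bhlhe41: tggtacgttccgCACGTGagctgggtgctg
Nfil3: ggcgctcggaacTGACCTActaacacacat
The Tef sites lie at chr15:81802534-81802563 and chr15:81811264-81811293 on the plus strand, the first within an exon of a GENCODE transcript and the second in an intron of longer Tef transcripts. The Bhlhe41 site lies at chr6:145865556-145865585 on the minus strand with its E-box upstream of the GENCODE gene, and the Nfil3 site at chr13:52981034-52981063 on the minus strand within an annotated exon. A match of letters is a description of the window, and binding was not measured.

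Total counts ranged from 37924266 to 72954187 per library, with Het 3 the deepest, and mitochondrial transcripts took 3.16 to 4.49% of counts. Ptprd ranged from 127 to 132 CPM (counts scaled to a common library size) in WT against 54.1 to 78.1 CPM in Het, as the genotype labels have it. Hepatocyte markers (6 of 6 tested) summed to 123494 to 147484 CPM in WT and 146310 to 177942 CPM in Het, which fits the labelled tissue. Markers of other cells were far lower, with summed levels of 338 to 531 CPM in WT and 243 to 451 CPM in Het for Kupffer cells (6 of 6 tested), 276 to 313 and 245 to 314 CPM for sinusoidal endothelial cells (5 of 5), and 249 to 298 and 226 to 255 CPM for stellate cells (5 of 5). Erythroid markers summed to 93.0 to 249.9 CPM, cholangiocyte markers to 45.1 to 61.9 CPM, and B cell, T cell, neutrophil, exocrine pancreas and adipocyte markers to at most 6.21, 3.68, 2.85, 0.589 and 0.170 CPM in any library. None of the markers in the table was at 0 in every library.

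None of the 10 genes differed between the genotypes past the threshold. With edgeR's quasi-likelihood test and Benjamini-Hochberg adjustment over 14606 genes, 0 of the 10 passed an adjusted p of 0.05, and 0 of all tested genes (0%) did. At an unadjusted p under 0.05 there were 2 of 10, Dbp and Bhlhe41, both higher in Het, against 3.39% of all tested genes on the higher side and 3.77% on the lower side. DESeq2 gave an adjusted p to 11840 genes and called 0.515% of them, with 0 calls among the 9 of the 10 genes that had one (Bhlhe41 had none). Limma-voom called 0 of the 10 and 0% of all tested genes. Ptprd itself (log2 fold change -0.99) had an adjusted p of 0.298 by edgeR, 0.356 by limma-voom and 2.9e-06 by DESeq2. The lack of a call by edgeR or limma-voom therefore does not show that a gene is unchanged. In 0 of the 10 genes did all Het libraries lie on one side of all WT libraries, a separation seen in 13.9% of tested genes. The median log2 fold change of Het over WT was 0.12 over the 10 genes, 6 of them above 0 and 4 below, and -0.0039 over all tested genes. Leaving out 1 library moved the median over the 10 genes between -0.047 (without Het 2) and 0.45 (without Het 1), and limma-voom gave 0.013, so its sign rests on single libraries. The 10 genes spread more among the Het libraries than among the WT libraries. The range of log2 CPM over the 3 Het libraries had a median of 1.69 in the 10 genes and 0.39 over all tested genes, and over the WT libraries the medians were 0.54 and 0.31. The range was wider in Het than in WT for 10 of 10 genes, and for 61.4% of all tested genes.

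**Figure D1:**
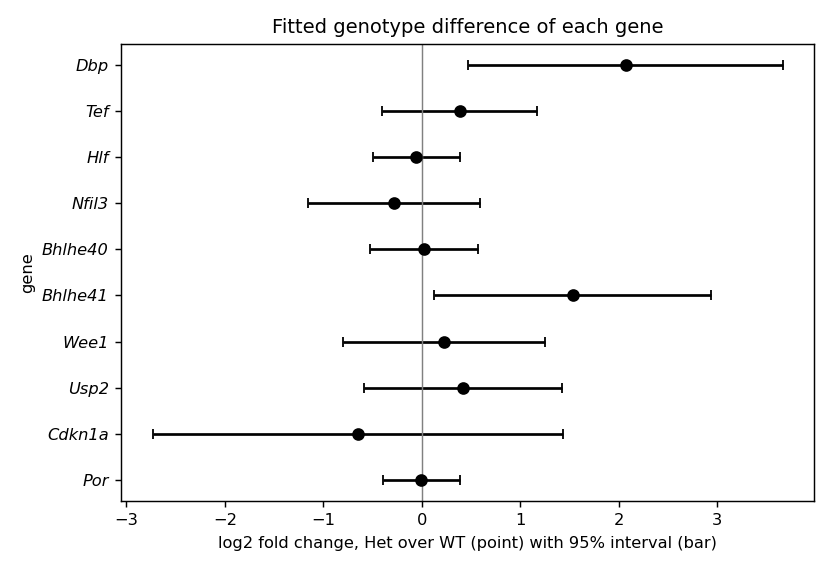
Fitted log2 fold change of Het over WT (horizontal axis) for each of the 10 genes (vertical axis), with its unadjusted 95% interval as a bar. Only the intervals of Dbp (0.47 to 3.67) and Bhlhe41 (0.13 to 2.94) do not cross 0, and neither gene passed after adjustment over all genes.

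Dbp encodes D site albumin promoter binding protein, the PAR bZIP activator with the widest daily swing in liver. The gene (ENSMUSG00000059824) lies on chromosome 7 at 45705088 to 45710203 (mm10, as are all positions here). Its level was 18.9, 29.6 and 14.4 CPM across WT 1 to 3, and 13.5, 129 and 122 CPM across Het 1 to 3. Het 2 and Het 3 were far above the other 4 libraries and close to each other, while Het 1 was the lowest of all, so the genotypes overlapped. The range within Het, 3.25 on the log2 CPM scale, ranked 20 among 14606 tested genes, and within WT a range at least as wide as that of Dbp (1.03) was seen in 8.60% of genes. The WT mean was 21.0 ± 7.78 CPM and the Het mean 88.2 ± 64.8 CPM (SD, n = 3). The fitted log2 fold change was 2.07 (SE 0.70), with an unadjusted p of 0.0173 and an adjusted p of 0.685 by edgeR and 0.517 by DESeq2. Leaving out WT 3, Het 2 or Het 3 raised edgeR's unadjusted p to 0.0539, 0.0516 and 0.0587, with log2 fold changes of 1.86, 1.70 and 1.76. Without WT 1 or WT 2 the log2 fold change was 2.00 and 2.41, with an unadjusted p of 0.0429 and 0.0200 by edgeR. Without Het 1 it was 2.57, with an unadjusted p of 3.4e-05 and an adjusted p of 0.0903 by edgeR. The exact permutation test over libraries gave p = 0.4 (two-sided), where 3 against 3 cannot go below 0.1. With no low-count filter, edgeR called the gene at an adjusted p of 0.0241, and over all settings its adjusted p ranged from 0.0241 to 0.955. With Het 1 as the lone Het library, a fit chosen after the values were seen that assumes this library varies like the others, the log2 fold change was -0.64. Sphk2, a coding gene on the opposite strand that overlaps Dbp in the annotation, had 47.2 to 54.1 CPM in WT and 53.7, 58.3 and 39.0 CPM across Het 1 to 3. The strand setting of the counting is not given, and the part of Sphk2 reads in the level of Dbp was not tested.

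Tef encodes thyrotroph embryonic factor, the second PAR bZIP activator, and lies on chromosome 15 at 81802421 to 81826861. It was at 164, 158 and 130 CPM across WT 1 to 3, and at 89.0, 248 and 253 CPM across Het 1 to 3. As for Dbp, Het 2 and Het 3 were above every WT library and Het 1 below every WT library, and the distance between Het 3 and Het 1 was 1.51 on the log2 scale. The log2 fold change of Het over WT was 0.39 (SE 0.34, 95% interval -0.40 to 1.18), with an adjusted p of 0.806 by edgeR, and it was 0.73 without Het 1, 0.19 without Het 2 and 0.16 without Het 3. Hlf encodes hepatic leukemia factor, the third activator of the family, and lies on chromosome 11 at 90336536 to 90390895. Its level was 57.0, 52.1 and 49.0 CPM across WT 1 to 3, and 36.6, 50.0 and 65.6 CPM across Het 1 to 3. Het 1 was again the lowest and Het 3 the highest, but Het 2 lay within the WT range, and the range within Het, 0.84 in log2 CPM, was reached by 15.8% of tested genes. The log2 fold change was -0.05 (SE 0.19, 95% interval -0.50 to 0.39), with an adjusted p of 0.966, and its sign turned without Het 1 (0.13). The 3 activators thus ranged from a wide to a narrow spread, with Dbp, Tef and Hlf in that order.

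Nfil3, the gene of the D-box repressor (chromosome 13, 52967209 to 52981073), ran the other way. It had 19.6, 25.6 and 29.7 CPM across WT 1 to 3, and 34.8, 16.2 and 10.9 CPM across Het 1 to 3. Het 1 was the highest library and Het 2 and Het 3 were the lowest, on either side of the whole WT range. Means were 25.0 ± 5.09 and 20.6 ± 12.6 CPM (SD, n = 3), with a log2 fold change of -0.28 (SE 0.38, 95% interval -1.16 to 0.59) and an adjusted p of 0.882 by edgeR. Without Het 1 that fold change was -0.89, and without Het 3 it was 0.029.

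**Figure D2:**
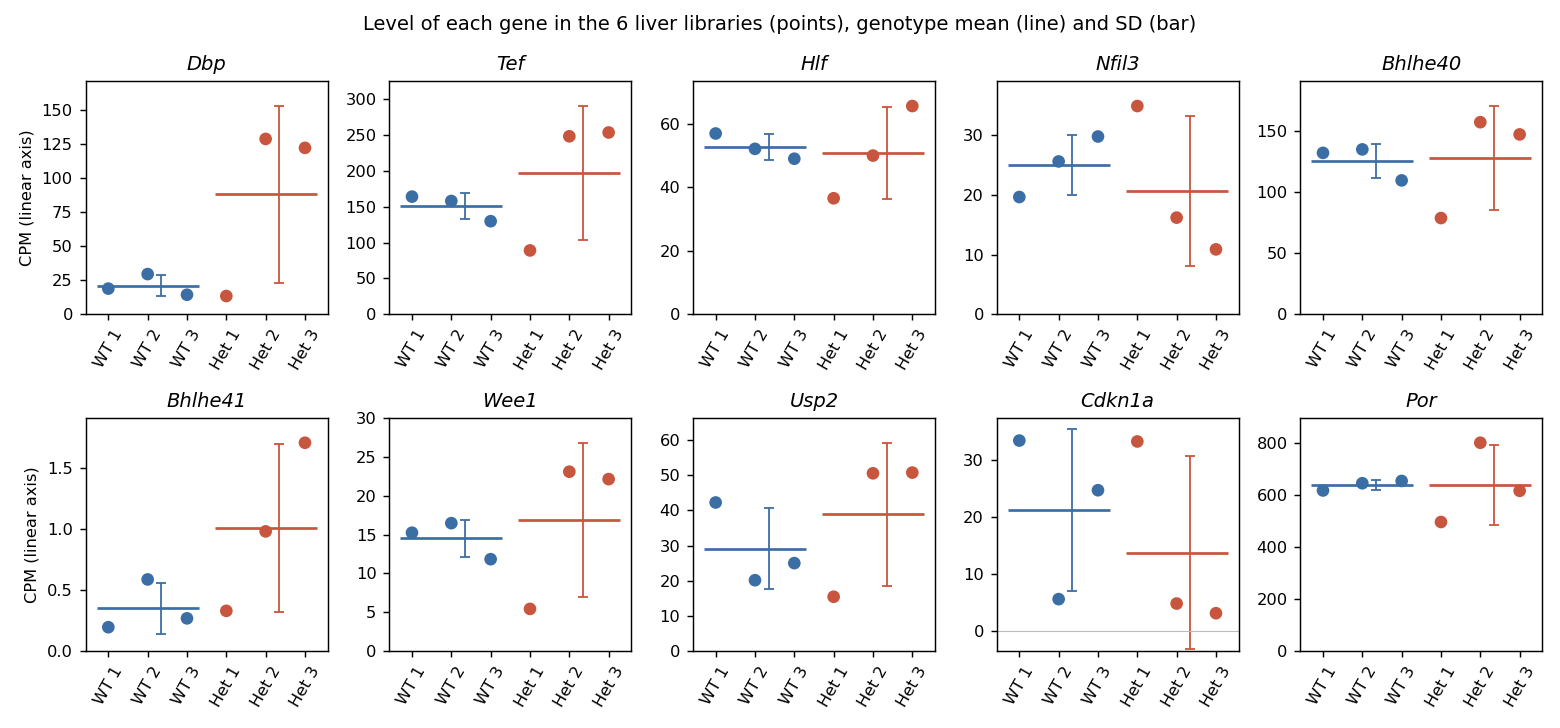
Level of each of the 10 genes in CPM (vertical axis, linear) in the 6 libraries (horizontal axis, WT in blue and Het in red), with the genotype mean as a line and 1 SD as a bar. Het 2 and Het 3 are the 2 highest libraries for Dbp (129 and 122 CPM) and Tef (248 and 253 CPM), and the 2 lowest for Nfil3 (16.2 and 10.9 CPM) and Cdkn1a (4.79 and 3.09 CPM).

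Set against each other per length of merged GENCODE exons, the 4 factors that bind the D-box made up different mixtures in different libraries. Dbp made up 13.9, 19.6 and 11.1% of their summed CPM per kb across WT 1 to 3, 11.7% in Het 1, 47.8% in Het 2 and 46.3% in Het 3. Nfil3 made up 21.4, 25.1 and 33.9% across WT 1 to 3, 44.7% in Het 1, 8.87% in Het 2 and 6.08% in Het 3. Nfil3 was therefore the most abundant of the 4 per length in Het 1, Dbp in Het 2 and Het 3, and Tef in each WT library (45.9, 39.8 and 38.0%). The ratio of the summed activators to Nfil3, per kb, was 3.68, 2.99 and 1.95 across WT 1 to 3, 1.24 in Het 1, 10.3 in Het 2 and 15.4 in Het 3. With the authors' median transcript lengths, which are far shorter for Tef, Tef led in each library at 75.7 to 83.2%, and the ratio was 18.4 to 34.9 over WT, 11.0 in Het 1, 71.4 in Het 2 and 108.8 in Het 3. Both lengths thus gave Het 1 the lowest ratio and Het 2 and Het 3 the highest. Across all 10 genes, the median level per kb of merged exon was highest for Por (157 CPM per kb), followed by Bhlhe40 (28.3), Tef (20.4), Nfil3 (11.2), Dbp (8.10), Hlf (7.64), Usp2 (6.98), Wee1 (4.64), Cdkn1a (4.27) and Bhlhe41 (0.0681). The ranges over libraries of all neighbours in that order overlapped, except those of Por against Bhlhe40 and of Cdkn1a against Bhlhe41. The order rests on the lengths used, and with the authors' lengths Nfil3 stood at place 8 in place of 4 and Tef at 2 in place of 3.

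**Figure D3:**
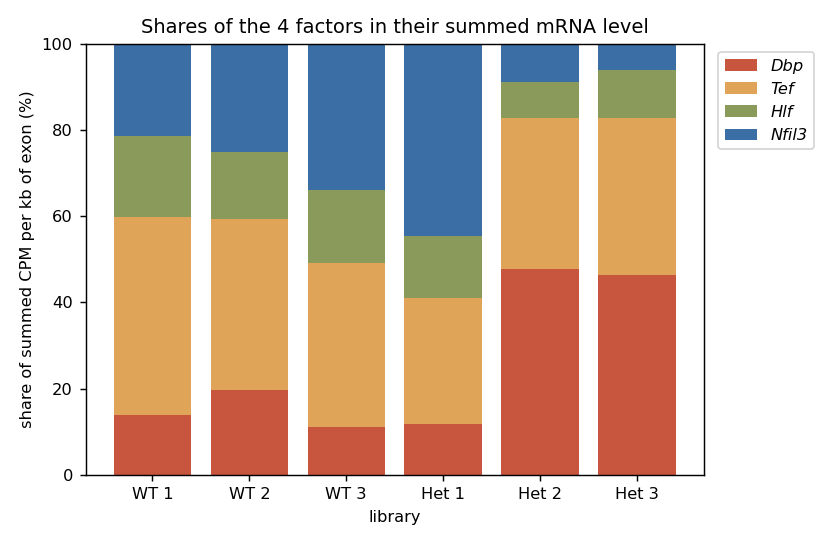
Share of Dbp, Tef, Hlf and Nfil3 in their summed level (vertical axis, percent of CPM per kb of merged exon) in each library (horizontal axis). Dbp takes 47.8 and 46.3% in Het 2 and Het 3 against 11.1 to 19.6% in the other 4 libraries, and Nfil3 reaches 44.7% in Het 1.

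Bhlhe40 and Bhlhe41 encode related basic helix-loop-helix repressors that compete at E-boxes with CLOCK and BMAL1. Bhlhe40 (chromosome 6, 108660629 to 108666925) was at 132, 135 and 109 CPM across WT 1 to 3, and at 78.7, 157 and 147 CPM across Het 1 to 3. All WT libraries lay below Het 2 and Het 3 and above Het 1, and the genotype means of 125 ± 13.9 and 128 ± 42.6 CPM were nearly level (SD, n = 3), with a log2 fold change of 0.03 (SE 0.24) and an adjusted p of 0.988 by edgeR. That value ranged from -0.15 without Het 2 to 0.27 without Het 1. Bhlhe41 (chromosome 6, 145858243 to 145865558) was close to the limit of detection, with 9, 30 and 10 counts in WT and 12, 46 and 127 counts in Het 1, Het 2 and Het 3. On the CPM scale these were 0.195, 0.586 and 0.268 in WT and 0.329, 0.979 and 1.70 in Het. The highest were again Het 2 and Het 3, followed by WT 2, and Het 1 lay within the WT range, unlike its place for Bhlhe40. The log2 fold change was 1.53 (SE 0.61, 95% interval 0.13 to 2.94), with an unadjusted p of 0.0358 and an adjusted p of 0.694 by edgeR, and DESeq2 gave it no adjusted p. Without Het 3 the log2 fold change fell to 0.90, with an unadjusted p of 0.189 by edgeR, and without WT 2 it was 2.17.

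Of the cell cycle genes, Wee1 encodes the kinase that holds CDK1 inactive before mitosis and is a known target of CLOCK and BMAL1 in liver. The gene (chromosome 7, 110122046 to 110143286) had 15.2, 16.5 and 11.8 CPM across WT 1 to 3, and 5.43, 23.1 and 22.1 CPM across Het 1 to 3. Between Het 2 and Het 3 the gap was 0.06 on the log2 scale. They stood 4.25-fold and 4.08-fold above Het 1, which had less than any WT library. The log2 fold change was 0.22 (SE 0.45, 95% interval -0.80 to 1.25), with an adjusted p of 0.926 by edgeR. It was 0.63 without Het 1 and -0.055 without Het 2. With Het 1, known to hold the lowest level, as the lone Het library it was -1.42, a value whose direction that choice fixes.

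Cdkn1a encodes the cyclin-dependent kinase inhibitor p21, a target of the tumour suppressor p53 whose gene REV-ERB is also known to repress in liver. It lies on chromosome 17 at 29090979 to 29100722. Its level was 33.5, 5.57 and 24.8 CPM across WT 1 to 3, and 33.4, 4.79 and 3.09 CPM across Het 1 to 3. Cdkn1a was thus low in 3 libraries, 1 WT and 2 Het, and high in the other 3, with no value between 5.57 and 24.8 CPM. Its range was wide within both genotypes, 2.58 in log2 CPM in WT, reached by 0.568% of tested genes, and 3.42 in Het, where it ranked 16 among 14606. The log2 fold change was -0.65 (SE 0.91, 95% interval -2.73 to 1.43), with an adjusted p of 0.886 by edgeR. It was -2.45 without Het 1, -1.10 without WT 2, -0.15 without WT 1, -0.24 without Het 2 and -0.16 without Het 3, and 0.66 with Het 1 as the lone Het library. The 3 low libraries were also the 3 with the most counts (48526395 in WT 2, 47054020 in Het 2 and 72954187 in Het 3) and the 3 with the lowest summed Kupffer cell markers (338, 243 and 404 CPM, against 437 to 531 CPM in the other 3), and the part of either in the level of Cdkn1a was not tested. Of 14 other p53 targets, all tested, 0 had genotypes that did not overlap, against 13.9% of all tested genes. The median range of the 14 over the 6 libraries was 0.67 in log2 CPM, against 3.42 for Cdkn1a and 0.58 for all tested genes. Of these, Gdf15 and Bbc3 had the widest ranges (1.50 and 1.48), and Trp53inp1 and Eda2r had the largest fold changes (-0.55 and -0.48, adjusted p 0.698 and 0.776 by edgeR).

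Usp2 encodes a ubiquitin-specific protease whose transcript is rhythmic in many tissues (chromosome 9, 44067021 to 44095627). It was at 42.2, 20.1 and 25.0 CPM across WT 1 to 3, and at 15.4, 50.5 and 50.7 CPM across Het 1 to 3. The extremes were again Het 2 and Het 3 on top and Het 1 at the bottom, but WT 1 came close to the top, unlike its place for Dbp. The log2 fold change was 0.42 (SE 0.44, 95% interval -0.59 to 1.43), with an adjusted p of 0.841 by edgeR. Leaving out Het 1 or WT 1 gave 0.79 in both cases, and leaving out Het 3, Het 2 or WT 2 gave 0.18, 0.20 and 0.22. Por encodes cytochrome P450 oxidoreductase, which passes electrons to the microsomal cytochromes P450 (chromosome 5, 135670033 to 135735326). Its level was 618, 645 and 654 CPM across WT 1 to 3, and 496, 801 and 616 CPM across Het 1 to 3. The WT libraries were within 0.08 of each other in log2 CPM, a range that 92.5% of tested genes reached or passed, while Het 1 was the lowest and Het 2 the highest of all libraries and Het 3 stood at the WT level. Genotype means were 639 ± 19.1 and 638 ± 154 CPM (SD, n = 3), with a log2 fold change of -0.0026 (SE 0.17, 95% interval -0.39 to 0.39) and an adjusted p of 0.998, and it was 0.14 without Het 1 and -0.20 without Het 2.

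The Het libraries stood at the ends for most of the 10 genes, with exceptions in Bhlhe41, where WT 1 was the lowest library, and Cdkn1a, where WT 1 was the highest. Het 2 and Het 3 were the 2 highest libraries in 6 genes (Dbp, Tef, Bhlhe40, Bhlhe41, Wee1 and Usp2), a pattern found in 5.96% of tested genes, and the 2 lowest in Nfil3 and Cdkn1a, a pattern found in 5.37%. Het 1 was the lowest library in 7 genes, against 24.3% of tested genes. These patterns were picked out after the values were seen, the genes were listed with such results known, and no test of them was made. The root mean square difference over the 10 genes, in log2 CPM, was smallest between Het 2 and Het 3 (0.40) of all 15 pairs of libraries, followed by WT 1 and WT 3 (0.42) and WT 3 and Het 1 (0.54). It was largest between Het 1 and Het 3 (2.01) and Het 1 and Het 2 (1.81), and WT 2 stood at 0.85 from WT 3 and 0.90 from Het 2. Over all tested genes the span was 0.41 to 0.60 over all pairs. Neither Het 2 and Het 3 (0.47) nor Het 1 and Het 3 (0.49) stood apart there. Het 1 and Het 2 (0.53) were among the more distant pairs over all tested genes as well, ranking 13 of 15 from the closest. Without Dbp the smallest and the largest distance over the other 9 genes belonged to the same pairs (0.43 and 1.84). Het 1 also had the lowest summed sinusoidal endothelial and stellate cell markers (245 and 226 CPM), the highest hepatocyte marker sum (177942 CPM) and the lowest mitochondrial share (3.16%), and their part in its low levels was not tested. In a bulk sample, fewer cells of a type and less RNA per cell cannot be told apart.

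**Figure D4:**
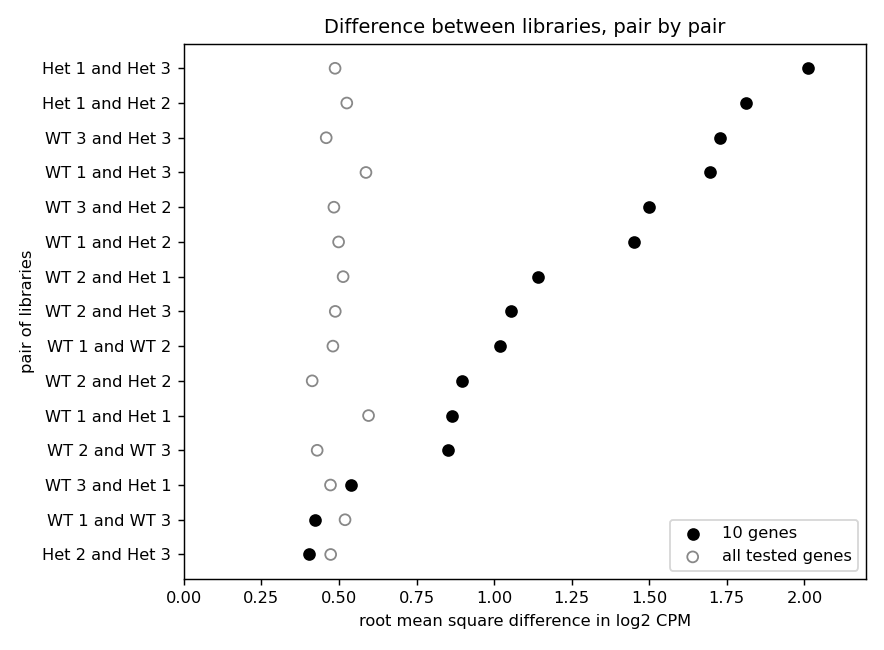
Root mean square difference in log2 CPM (horizontal axis) for each pair of libraries (vertical axis), over the 10 genes (filled points) and over all 14606 tested genes (open points). The open points lie between 0.41 and 0.60, while the filled points run from 0.40 for Het 2 and Het 3 to 2.01 for Het 1 and Het 3.

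**Figure D5:**
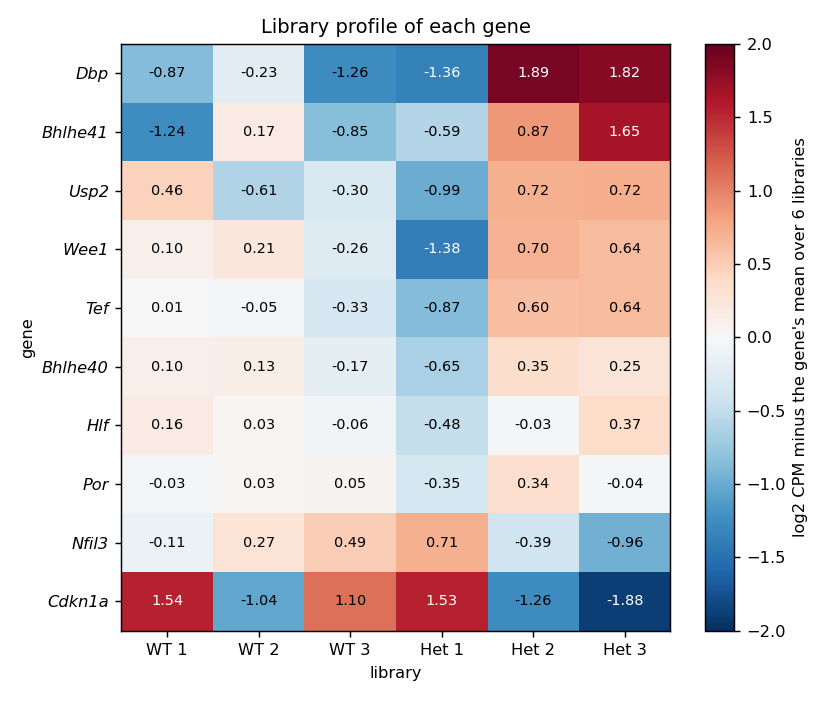
Log2 CPM of each gene (vertical axis) in each library (horizontal axis) minus the gene's mean over the 6 libraries, printed in each cell and coloured from blue (low) to red (high). Het 2 and Het 3 run from 1.89 and 1.82 for Dbp to -1.26 and -1.88 for Cdkn1a, and WT 2 is the only WT library with a low Cdkn1a value (-1.04).

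Several genes of the core loop differed between the Het libraries in the same way. Arntl was at 17.2, 11.8 and 19.7 CPM across WT 1 to 3, and 21.4, 2.41 and 1.92 CPM across Het 1 to 3, the mirror of Dbp. Nr1d1, which encodes REV-ERB alpha, had 9.49, 21.4 and 10.4 CPM across WT 1 to 3, and 17.6, 55.5 and 46.9 CPM across Het 1 to 3, with the highest levels in the libraries with the lowest Nfil3. The other libraries did not follow that order, as Het 1 had the highest Nfil3 but more Nr1d1 than WT 1 and WT 3. Per2 had 41.3, 40.1 and 31.2 CPM across WT 1 to 3, and 22.5, 53.1 and 66.2 CPM across Het 1 to 3, and Cry1, which is known to peak later than the other repressors, had 25.1, 21.8 and 30.1 CPM across WT 1 to 3, and 24.9, 11.6 and 10.5 CPM across Het 1 to 3. Of the 13 core clock genes, all tested, 0 passed edgeR's adjusted threshold and 4 had an unadjusted p under 0.05. Of those 4, 1 was higher and 3 were lower in Het, against 3.39% and 3.77% of all tested genes. The median log2 fold change of the 13 was 0.13, moving from -0.095 without Het 2 to 0.30 without Het 1. Ciart, a repressor of CLOCK and BMAL1, had a log2 fold change of 1.81 (9.05, 1.64 and 1.66 CPM across WT 1 to 3, and 2.06, 23.5 and 17.8 CPM across Het 1 to 3), and Npas2, which encodes a stand-in for CLOCK, had the widest range (5.25 in log2 CPM) at no more than 2.03 CPM. In 6 of the 13 the 2 highest libraries were Het 2 and Het 3, and in 4 they were the 2 lowest, against 5.96% and 5.37% of tested genes.

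For each of the 10 genes, the tested genes with the nearest profile over the 6 libraries were found. The measure was the root mean square difference between centred log2 CPM values. They were taken from 11377 genes (11378 for Bhlhe41) with a mean of at least 1 CPM, leaving out genes with a predicted (Gm or Rik) symbol. Nearest to Dbp were Nup62cl (0.44), Nr1d1 (0.59) and Il12rb1 (0.79), and nearest to its mirror image were Arntl (0.17), Dhrs9 (0.45) and Dnmt3b (0.60). Among these genes Arntl as a mirror was thus closer than any gene that moved with Dbp. Nup62cl and Il12rb1 were below 1 CPM in each WT library and in Het 1. They passed the cut on mean CPM only through Het 2 (1.79 and 1.17 CPM) and Het 3 (2.91 and 2.80 CPM). Nearest to Tef was Per2 (0.09), followed by Jade1 (0.16) and Unc5b (0.17), and nearest to Wee1 were Ccne2, Gadd45a and Klf10 (0.16 to 0.20). Ccne2 encodes a cyclin of the entry into DNA replication and Gadd45a a growth arrest protein, and both had their lowest level in Het 1 (0.631 and 1.45 CPM, against at least 1.61 and 3.91 CPM in the other libraries). Usp2 was nearest to Nrg4, Angptl8 and Klf13 (0.22 to 0.27), Nfil3 to Fam222a, Cda and Hsd3b7 (0.12 to 0.19), and Bhlhe41 to Nup62cl, Nr1d1 and Bdnf (0.20 to 0.35). Bdnf also passed the cut only through Het 2 and Het 3 (1.17 and 2.29 CPM), being below 1 CPM in each WT library and in Het 1. Cdkn1a had no near neighbour, with Tubb2a (0.66), a tubulin gene with a daily rhythm in liver, ahead of Arntl (0.70) and Ighg2c (0.72). Hlf, Bhlhe40 and Por, with narrow ranges, lay within 0.08 of their nearest genes, Ago2, Sntb2 and Akr1c14 for Hlf, Bach1, Zfp759 and Osbpl8 for Bhlhe40, and Atp5s, Fryl and Tdrkh for Por. Among the 10 genes themselves the closest pair was Hlf and Bhlhe40 (0.19), Tef lay at 0.24 from Wee1 and 0.30 from Usp2, and the farthest pair was Dbp and Cdkn1a (2.71).

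Of 18 other genes known to be rhythmic in liver, 0 passed edgeR's adjusted threshold, and the median log2 fold change was 0.11. An unadjusted p under 0.05 by edgeR was reached by 2 on the higher and 2 on the lower side, against 3.39% and 3.77% of all tested genes. In 4 of the 18 the 2 highest libraries were Het 2 and Het 3, and in 5 they were the 2 lowest, against the 5.96% and 5.37% of tested genes given above. Cys1 and Slc45a3 had the largest fold changes of the list (0.90 and -0.68 in log2), and Rgs16, a regulator of G protein signalling, had the widest range (4.22), with 4.36 CPM in Het 1, 82.0 in Het 2 and 25.0 in Het 3 against 20.2 to 47.2 in WT. Elovl3, a fatty acid elongase gene, had 18.8 CPM in Het 1, 4.24 in Het 2 and 4.70 in Het 3, against 5.08 to 10.4 CPM in WT. For Rgs16, Het 2 and Het 3 thus lay far apart, although they were the closest pair over the 10 genes together.

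Of 12 reported targets of PAR bZIP factors or NFIL3 in liver, 0 passed edgeR's adjusted threshold, and the median log2 fold change was -0.05. At an unadjusted p under 0.05 by edgeR 1 was higher and 2 were lower, against 3.39% and 3.77% of all tested genes. In 0 of the 12 were Het 2 and Het 3 the 2 highest libraries, against 5.96% of tested genes. In 1 they were the 2 lowest, against 5.37%, and counts this small in 12 genes are near those shares. That gene was Cyp2b10, a cytochrome P450 induced through the receptor CAR, at 47.8, 45.1 and 17.9 CPM across WT 1 to 3, and 16.5, 10.5 and 8.06 CPM across Het 1 to 3, a log2 fold change of -1.67 (SE 0.39) with an adjusted p of 0.585 by edgeR. Cyp4a14, a fatty acid hydroxylase, was at 901, 877 and 711 CPM across WT 1 to 3, and 1319, 1076 and 2174 CPM across Het 1 to 3, a log2 fold change of 0.88 (SE 0.25), with an adjusted p of 0.649 by edgeR and 0.0486 by DESeq2. Cyp2a4 had 190, 402 and 416 CPM across WT 1 to 3, and 107, 284 and 383 CPM across Het 1 to 3, and shares much of its sequence with Cyp2a5, so its level is uncertain. Among 10 partners of Por in microsomal electron transfer, 0 passed and 3 were lower at an unadjusted p under 0.05, against 3.77% of all tested genes. The largest fold change was in Hmox1 (-0.80 in log2, adjusted p 0.685 by edgeR). Cyp2e1, the other gene of that list with a wide range, was at 4899 to 8016 CPM in WT and 7994 to 9497 CPM in Het. Of 9 partners of Wee1 at the entry into mitosis 7 could be tested, all at no more than 7.90 CPM in any library, with 0 past the threshold and Plk1 (0.85 in log2, adjusted p 0.694 by edgeR), Pkmyt1 and Ccnb2 the genes with the largest changes or ranges.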

How the data were processed

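Polyadenylated liver RNA of 3 WT and 3 Het samples was sequenced from strand-specific libraries, per the labels' protocols. The authors deposited raw read counts per Ensembl gene, per the file headers. Per the submitters' processing notes, the tools were STAR 2.5.3a and HTSeq 0.6.1p1, with bcl2fastq 2.17.1.14, cutadapt 1.10 and DESeq2 1.16.1, on build mm10. The annotation, the strand setting and the handling of multi-mapping reads are unstated in the notes. The authors' normalized columns and table of differential expression were not used.

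The 10 genes and all gene lists were chosen with earlier results of these data known. Low-count genes were filtered by filterByExpr, leaving 14606 genes holding 99.955% of counts. Libraries were scaled by TMM, and log2 CPM used a prior count of 2. Het was compared with WT by edgeR 4.0.16 (R 4.3.3, quasi-likelihood test, two-sided, genotype only), adjusted by Benjamini-Hochberg over the tested genes, at a threshold of 0.05. The test was tried on simulated data first. Alternatives were DESeq2 1.42.0, limma-voom (limma 3.58.1), other scalings and filters, the replicate number as a block and leaving out libraries. No pair of libraries agreed within sampling noise. Named were the 10 genes, Ptprd, Arntl, Nr1d1, Per2 and Cry1, the 3 nearest genes to each of the 10 (and to the mirror image of Dbp), and from each of 6 lists the 2 genes with the largest fold change and the 2 with the widest range. Sphk2 was named for its overlap with Dbp. Lengths are those of merged exons in GENCODE M21. A result for 1 gene outside the 10 is not reported here.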

Additional observations from a re-analysis of the deposited data

How the results depend on the processing

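The count of the 10 genes called was 0 in each alternative except edgeR without a filter on low counts, where 1 (Dbp, log2 fold change 2.08, adjusted p 0.0241) passed. Bhlhe41 could not be called with DESeq2, which gave it no adjusted p. Nor could it be with the filter of 1 CPM in at least 3 libraries, which removed it. Over all genes edgeR called 0, DESeq2 61, edgeR without a filter 73, and leaving out 1 library gave 0 to 1. Of 139 values of single genes under an alternative, 115 kept their direction and side of the threshold, 1 passed it and 23 changed sign. Without Het 2 and Het 3, chosen after seeing the data, the median log2 fold change was -0.58 over the 10 genes and -0.28 over the core clock list. The log2 fold changes were then -0.64 (Dbp), -0.75 (Tef), 0.48 (Nfil3), -0.67 (Bhlhe40), -0.11 (Bhlhe41), -1.42 (Wee1), -0.91 (Usp2) and 0.66 (Cdkn1a), each opposite in sign to the fit of all libraries. Hlf (-0.52) and Por (-0.36) kept their sign. Het 1 was known to be the lowest library for Dbp, Tef, Hlf, Bhlhe40, Wee1, Usp2 and Por, and the highest for Nfil3. For those genes the choice of Het 1 fixed the direction. Leaving out 1 library at a time gave a median of -0.047 to 0.45 over the 10 genes and -0.095 to 0.30 over the core clock list. Log2 fold changes ran from 1.70 to 2.57 for Dbp, -2.45 to -0.15 for Cdkn1a, 0.16 to 0.73 for Tef and 0.90 to 2.17 for Bhlhe41. They ran from 0.18 to 0.79 for Usp2, -0.28 to 0.13 for Hlf, -0.89 to 0.029 for Nfil3 and -0.15 to 0.27 for Bhlhe40. For Wee1 they ran from -0.055 to 0.63 and for Por from -0.20 to 0.14. Bhlhe40 was -0.042 with limma-voom, and Por was 0.0031 without a filter. The titles number the samples 1 to 3 in each genotype but do not say that these numbers mark pairs, so they were not taken as pairs. Deviations from the genotype mean had correlations of -0.068, 0.12 and 0.15 in same-numbered samples, and of -0.30 to 0.18 in the others. With 3 libraries per genotype these values cannot decide whether the samples were paired. With the replicate block edgeR called 0 genes, the median was -0.0030 over the 10 genes and 0.11 over the core clock list, and Bhlhe40 was -0.029. The cause of these changes was not tested. Depth limits Bhlhe41 most, with 9 to 127 counts per library.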
